A study of Mus musculus with 10 samples.

Results

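The nuclear genes for the subunits of the mitochondrial respiratory chain and of ATP synthase were followed in the mouse brain after experimental stroke. Members were all genes whose symbol on the array platform started with Ndufa, Ndufb, Ndufc, Ndufs or Ndufv and a digit, with Cox and a digit between 4 and 8, with Uqcr or with Atp5, together with Sdha, Sdhb, Sdhc and Sdhd. The rule found 81 members among 18193 genes, read by 164 probe sets: 35 genes of complex I, 4 of complex II, 8 of complex III, 17 of complex IV and 17 of complex V. The rule used symbols and brightness but no difference between groups, and a gene with several probe sets was read from the one that was brightest on average across the 10 arrays. Ndufa4 and Ndufa4l2 were counted with complex I by their symbols, although NDUFA4 is known as a subunit of complex IV.

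The respiratory chain sits in the inner mitochondrial membrane and passes electrons from NADH and succinate to oxygen. Complex I oxidises NADH, complex II is the succinate dehydrogenase of the citric acid cycle, complex III passes electrons from ubiquinol to cytochrome c, and complex IV, cytochrome c oxidase, reduces oxygen to water. Complexes I, III and IV pump protons, and complex V, the ATP synthase, uses the returning protons to make ATP. Neurons depend on this pathway for most of their ATP, and oxygen and glucose, which feed it, are what an occluded artery withholds. Most subunits are encoded in the nucleus and a smaller set in mitochondrial DNA. The transcription factors NRF-1, GABP (an ETS factor), YY1 and the estrogen-related receptors are known to act on many of the nuclear subunit genes.

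RNA was measured in 4 groups of male mice, all taken 24 h after surgery: Hsp72Tg mice with occlusion of the middle cerebral artery (MCAO, n = 3), WT mice with MCAO (n = 3), Hsp72Tg mice with sham surgery (n = 2) and WT mice with sham surgery (n = 2). Hsp72Tg mice overexpress Hsp72, a heat shock protein that cells make under stress; the labels give neither the promoter nor the cells that drive the transgene, nor strain or age. Each sample was total RNA of a whole hemisphere, the ischaemic one after MCAO and that of the same side after sham surgery, so all cell types of the hemisphere were measured together. The values are the deposited log2 RMA expression values, in which a difference of 1 is a factor of 2.

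The 10 arrays had medians between 6.67 and 6.73 on the log2 scale. Hspa1a and Hspa1b, the mouse genes for Hsp72, were not higher in Hsp72Tg than in WT after sham surgery: Hspa1b read 9.12 and 9.15 in Hsp72Tg sham, against 9.38 and 9.48 in WT sham, and the labels do not say whether the array can read the transgene. Neuronal tissue was present in all samples, since Snap25, a synaptic protein of neurons, read between 13.64 and 13.90 on every array. Of the 81 members, 69 had a mean log2 value above 10 over the 10 arrays and 11 a mean below 9. The probe sets kept for Cox7b2 and Ndufb4 had means under 5.7, the lower quartile of all gene means, so their differences are uncertain. WT sham 1 alone carried a cerebellar signal, with Gabra6, a receptor subunit of cerebellar granule cells, at 9.46 against 4.15 to 4.49 on the other 9 arrays. Hsp72Tg MCAO 1 stood apart from the other 5 MCAO arrays on 3 markers that were picked out after their values were seen. S100a8 of neutrophils read 6.20 there, against 8.89 to 10.88 on the other MCAO arrays and 5.53 to 7.67 on the sham arrays. S100a9, its partner protein, read 5.93 against 8.61 to 10.61 and 5.31 to 7.38. P2ry12, a receptor of resting microglia, read 8.38 against 6.45 to 7.21 and 8.17 to 8.92. Other genes of the same marker lists were mixed. Cx3cr1, Aif1, Cd68, Camp, Ccr2 and Plac8 read there within the range of the other MCAO arrays, while Tmem119, Csf1r and Ngp lay outside it. On Cx3cr1, Hsp72Tg MCAO 2 stood apart instead, at 7.91 against 9.26 to 9.44 on the other MCAO arrays.

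RefSeq promoter windows of 300 bases (250 before to 50 after a gene start, GRCm38.p6) were matched to 66 of the 81 members, in 71 windows. On either strand, the NRF-1 motif (GCGCA, then any base, then GCGC) stood in 22.5% of member windows, against 7.45% of 18009 windows of tested genes. The ETS motif CCGGAA stood in 38.0% against 21.0%, the YY1 motif ATGGCG in 26.8% against 11.9%, and the estrogen-related receptor motif AAGGTCA in 11.3% against 3.92%. Matches of different motifs shared bases in 0 of the 71 member windows and in 21 of the 18009. A match is a description of the window and not of a bound site. The 150 bases before the start of 1 member per complex are shown, 5′ to 3′ on the gene's own strand, to let a reader see these letters in genes whose values follow. All 5 genes lie on the minus strand of GRCm38.p6: Ndufa5 (complex I) with the window chr6:24527691-24527840, Sdha (complex II) with chr13:74350241-74350390, Uqcrh (complex III) with chr4:116075071-116075220, Cox6b1 (complex IV) with chr7:30626115-30626264 and Atp5e (complex V) with chr2:174464102-174464251. Capitals mark NRF-1 motifs in the first and second sequence and ETS motifs, here read as their reverse complement, in the other 3.
Ndufa5: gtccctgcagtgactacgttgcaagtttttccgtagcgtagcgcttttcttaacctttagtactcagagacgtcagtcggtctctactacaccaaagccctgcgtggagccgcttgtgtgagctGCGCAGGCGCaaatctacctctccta
Sdha: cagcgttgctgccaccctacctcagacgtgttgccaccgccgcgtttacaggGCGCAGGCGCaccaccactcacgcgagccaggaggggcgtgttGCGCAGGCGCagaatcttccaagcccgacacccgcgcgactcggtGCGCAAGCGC
Uqcrh: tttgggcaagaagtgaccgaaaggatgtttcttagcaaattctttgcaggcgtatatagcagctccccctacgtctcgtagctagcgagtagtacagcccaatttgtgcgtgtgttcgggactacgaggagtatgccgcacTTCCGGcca
Cox6b1: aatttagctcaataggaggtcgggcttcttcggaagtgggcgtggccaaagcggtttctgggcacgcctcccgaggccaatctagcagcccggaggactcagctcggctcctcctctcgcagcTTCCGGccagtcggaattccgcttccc
Atp5e: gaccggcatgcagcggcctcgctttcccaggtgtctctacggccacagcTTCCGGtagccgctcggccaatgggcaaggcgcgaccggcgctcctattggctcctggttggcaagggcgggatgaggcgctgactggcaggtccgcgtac
Sdha carried 3 NRF-1 motifs in this stretch, which begin at positions -98, -55 and -10 from the start. The motif of Ndufa5 begins at -26, and those of Uqcrh, Cox6b1 and Atp5e begin at -9, -27 and -101.

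Before the groups are compared, the 2 Hsp72Tg sham arrays have to be set apart, because they read the members at opposite ends. Relative to each gene's mean over the 4 sham arrays, the median member stood at 0.19 in Hsp72Tg sham 1 and at -0.16 in Hsp72Tg sham 2, against -0.01 in WT sham 1 and 0.01 in WT sham 2. Hsp72Tg sham 1 was above Hsp72Tg sham 2 in 74 of 81 members (91.4%), against 57.3% of all genes, with a median difference of 0.34 for the members and 0.04 for all genes. It was the highest of the 10 arrays in 62 members (76.5%), against 19.7% of all genes. The gap was 0.37 in complex I, 0.36 in complex II, 0.46 in complex III, 0.32 in complex IV and 0.31 in complex V as medians. Members for which it was large were Atp5e (0.93), Ndufb6 (0.83), Ndufa7 (0.76), Cox7a1 (0.73) and Ndufb2 (0.71). The 7 members that read lower in Hsp72Tg sham 1 were Sdha (-0.29), Cox7b2 (-0.18), Ndufa4l2 (-0.09), Atp5a1, Cox4i2, Atp5j and Uqcrc1 (between -0.04 and -0.02). The 2 WT sham arrays differed by a median of -0.02 over the members. Only Cox7a1, Cox6b2 and Cox4i2 lay more than 0.3 apart there, in either direction. In the Hsp72Tg pair, 46 members (56.8%) were more than 0.3 higher in Hsp72Tg sham 1, against 15.3% of all genes. The Hsp72Tg pair was also further apart over all genes. There the median absolute gap was 0.16 in Hsp72Tg and 0.09 in WT, against 0.34 and 0.05 over the members. The Hsp72Tg gap was the larger one in 86.4% of members and 65.4% of all genes.

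**Figure D1:**
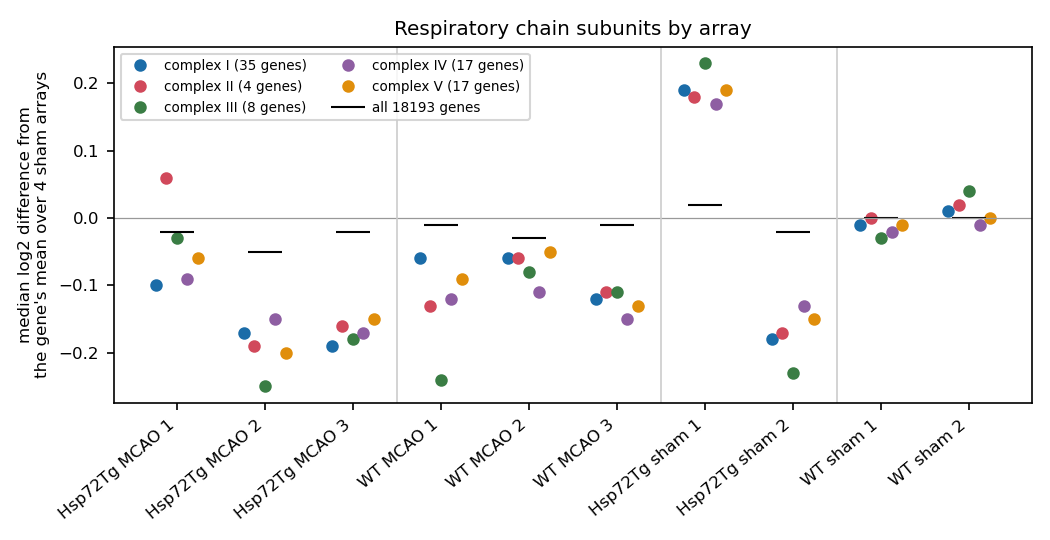
Median log2 difference from each gene's mean over the 4 sham arrays, by array (horizontal axis, grouped by genotype and surgery), with a point for each complex and a black line for all 18193 genes. Points of all 5 complexes lie at 0.17 to 0.23 in Hsp72Tg sham 1 and at -0.23 to -0.13 in Hsp72Tg sham 2, while the WT sham points lie between -0.03 and 0.04.

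The split in Hsp72Tg sham was shared by genes that act on the same complexes. Among 15 complex I assembly factors 14 read higher in Hsp72Tg sham 1 than in Hsp72Tg sham 2, and so did all 4 complex II, all 6 complex III and all 4 ATP synthase factors, with medians between 0.25 and 0.61; of 18 complex IV factors 14 did, with a median of 0.22. Citric acid cycle and pyruvate dehydrogenase genes (10 of 16 higher, median 0.10), glycolysis genes (9 of 14, median 0.06) and neuron markers (4 of 10, median -0.07) gave values nearer to that of all genes. Between these stood import and chaperone genes (8 of 13, median 0.21) and redox genes (3 of 5, median 0.17), while carriers and subunits outside the naming rule (13 of 15, median 0.29) were as far apart as the assembly factors. ND5, the mitochondrially encoded complex I subunit and the only mitochondrial transcript of the lists, read 13.67 in Hsp72Tg sham 1 and 13.84 in Hsp72Tg sham 2, the opposite order. Among 959 other genes brighter than the lower quartile of the members, the median stood at -0.01 in Hsp72Tg sham 1 and at 0.01 in Hsp72Tg sham 2. Other lists went both ways. Red blood cell (3 of 3 higher, median 0.40), microglia and macrophage (5 of 6, 0.12) and muscle markers (6 of 7, 0.07) were mostly higher in Hsp72Tg sham 1. Mostly lower were endothelial (2 of 6 higher, median -0.24), oligodendrocyte (1 of 5, -0.13) and pericyte and vessel wall markers (4 of 11, -0.07). So were mitochondrial dynamics and mitophagy genes (3 of 8 higher, median -0.07). The medians of the members and of the complexes are therefore given with and without these arrays, and several single members without Hsp72Tg sham 1; other single values rest on all 10 arrays.

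After MCAO the members read slightly lower than after sham surgery, and no member passed the test. Over both genotypes (6 MCAO arrays against 4 sham arrays), the median difference was -0.11 on the log2 scale, a factor of 0.93, with quartiles at -0.18 and -0.07, against -0.03 over all genes. It was lower in value for 75 of 81 members (92.6%), against 57.5% of all genes. In limma with Benjamini-Hochberg adjustment 0 of 81 passed at an adjusted p under 0.05, where 1.06% of all genes passed as higher and 0.407% as lower. At an unadjusted p under 0.05, 16 members were lower (19.8%, against 10.8% of all genes) and 0 higher (against 8.3% of all genes). In 5 members (6.17%, against 3.41% of all genes) every MCAO array lay below every sham array, and in 0 members (against 3.19% of all genes) every one lay above. The median was -0.04 with 58 members lower without Hsp72Tg sham 1, and -0.20 with 79 lower without Hsp72Tg sham 2. In hemisphere RNA, fewer cells of a type and less RNA per cell cannot be told apart. Neuron markers had a median of -0.11 with 8 of 10 lower and 0 of 10 passing in limma (3 lower at an unadjusted p under 0.05). Their median was -0.13 without Hsp72Tg sham 1 and -0.07 without Hsp72Tg sham 2, and their part in the members' difference was not tested.

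The complexes gave similar medians. The median difference was -0.11 in complex I (32 of 35 lower), -0.09 in complex II (4 of 4), -0.12 in complex III (8 of 8), -0.15 in complex IV (14 of 17) and -0.10 in complex V (17 of 17). With Ndufa4 and Ndufa4l2 moved to complex IV, the medians of complex I and complex IV were again -0.11 and -0.15. The 16 members with an unadjusted p under 0.05 were 8 of complex I, 5 of complex IV and 3 of complex V. Without Hsp72Tg sham 1 the medians were -0.04 in complex I (23 of 35 lower), -0.02 in complex II (3 of 4), -0.08 in complex III (6 of 8), -0.04 in complex IV (14 of 17) and -0.06 in complex V (12 of 17), and without Hsp72Tg sham 2 they were -0.20, -0.18, -0.23, -0.20 and -0.17. Over all genes the medians were -0.02 without Hsp72Tg sham 1 and -0.03 without Hsp72Tg sham 2.

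In complex I, Ndufa4 (chr6:11900372-11907450) had the lowest unadjusted p. It read 12.06, 11.68 and 11.80 in Hsp72Tg MCAO and 11.93, 12.05 and 11.86 in WT MCAO, against 12.38 and 12.08 in Hsp72Tg sham and 12.23 and 12.20 in WT sham. All 6 MCAO arrays lay below all 4 sham arrays, narrowly so between Hsp72Tg MCAO 1 and Hsp72Tg sham 2. The difference was -0.33 (SE 0.09, 95% interval -0.54 to -0.12) with an adjusted p of 0.107 in limma, so it did not pass. Without Hsp72Tg MCAO 1, its highest MCAO array, Ndufa4 passed, as the only member to pass under any alternative. In that fit 2251 of 18193 genes passed, against 266 with all arrays. The 1 of 81 members that passed there was a smaller share than that of all genes. Ndufb5, an accessory subunit of the membrane arm, was also lower on every MCAO array, at 11.85, 11.76 and 11.76 in Hsp72Tg MCAO and 11.78, 11.78 and 11.79 in WT MCAO, against 12.15 and 11.88 in Hsp72Tg sham and 11.99 and 12.01 in WT sham. Its 6 MCAO arrays lay close together while the 2 Hsp72Tg sham arrays did not, and the difference was -0.22 (SE 0.07, adjusted p = 0.13). Ndufs1, the large iron-sulfur subunit of the catalytic core, was the third complex I member without overlap, with 11.29, 11.21 and 11.17 in Hsp72Tg MCAO and 11.22, 11.28 and 11.25 in WT MCAO, against 11.37 and 11.36 in Hsp72Tg sham and 11.35 and 11.36 in WT sham. Its 4 sham arrays lay close together, the Hsp72Tg pair included, and its difference was -0.12 (SE 0.06, adjusted p = 0.281).

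In Ndufs4 the Hsp72Tg sham arrays were further apart. Ndufs4, an accessory subunit whose loss causes mitochondrial encephalopathy in mice, read 9.98, 9.72 and 9.69 in Hsp72Tg MCAO and 9.93, 10.04 and 9.77 in WT MCAO, against 10.40 and 9.97 in Hsp72Tg sham and 10.14 and 10.10 in WT sham. Hsp72Tg sham 2 lay within the range of the MCAO arrays, and the difference was -0.30 (SE 0.10, adjusted p = 0.159), or -0.19 without Hsp72Tg sham 1; its 4 probe sets gave differences between -0.50 and 0.01. The core iron-sulfur subunit Ndufs8 had a difference of -0.26 (SE 0.11), and the accessory subunits Ndufc1, Ndufb3, Ndufs5 and Ndufa1 had differences of -0.25, -0.23, -0.21 and -0.18, with unadjusted p between 0.03 and 0.0457. The 6 measured core subunits of the NADH arm had a median of -0.10. The 29 other members counted with complex I, Ndufa4 and Ndufa4l2 included, had one of -0.13. Without Hsp72Tg sham 1 these medians were -0.05 and -0.03. Ndufc2 (0.05), Ndufa10 (0.02) and Ndufb7 (0.00) were the complex I members that were not lower. Ndufa11 and Ndufs6 are read by probe sets shared with other genes and were not used here.

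In complex II all 4 subunits were lower in value, and 0 of 4 passed in limma or had an unadjusted p under 0.05. Sdha, the flavoprotein that oxidises succinate, read 12.09, 12.06 and 12.12 in Hsp72Tg MCAO and 12.06, 12.07 and 12.14 in WT MCAO, against 11.96 and 12.25 in Hsp72Tg sham and 12.16 and 12.17 in WT sham. The 2 Hsp72Tg sham arrays enclosed all other values, here with Hsp72Tg sham 1 as the lower one, and the difference was -0.05 (SE 0.07). Sdhb, the iron-sulfur subunit, had a difference of -0.08 (SE 0.10), and the membrane anchors Sdhc and Sdhd differences of -0.11 (SE 0.09) and -0.12 (SE 0.10). Sdhb read 12.35 and 11.89 in Hsp72Tg sham, which again spanned every other array. The 95% interval of the largest of these differences, that of Sdhd, ran from -0.36 to 0.11.

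In complex III, the small subunits showed larger differences than the core proteins by value. Uqcrh, the hinge protein that binds cytochrome c1, read 11.97, 11.60 and 11.78 in Hsp72Tg MCAO and 11.75, 11.90 and 11.81 in WT MCAO, against 12.38 and 11.73 in Hsp72Tg sham and 12.07 and 12.10 in WT sham. Hsp72Tg sham 2 lay among the MCAO arrays, and the difference was -0.27 (SE 0.12, adjusted p = 0.278), or -0.10 without Hsp72Tg sham 1. Uqcr11 and Uqcr10, small membrane subunits, had differences of -0.24 (SE 0.12) and -0.22 (SE 0.12). The electron-carrying Rieske protein Uqcrfs1 had -0.13 (SE 0.08), the core proteins Uqcrc2 and Uqcrc1 had -0.11 (SE 0.08) and -0.09 (SE 0.09), and Uqcrb, next to the ubiquinone site, had -0.01 (SE 0.07). As a median the 5 small subunits stood at -0.22 and the core and Rieske proteins at -0.11, a gap that was not tested; the small subunits also had the larger Hsp72Tg sham split, 0.58 against 0.18, and without Hsp72Tg sham 1 the medians were -0.07 and -0.08.

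Complex IV held both the member with the most negative difference and the one with the most positive. Cox7c, a small membrane subunit, read 6.40, 6.41 and 6.30 in Hsp72Tg MCAO and 6.03, 6.70 and 6.40 in WT MCAO, against 7.15 and 6.80 in Hsp72Tg sham and 6.63 and 6.67 in WT sham. The groups overlapped through WT MCAO 2, and the difference was -0.44 (SE 0.13, adjusted p = 0.105); the kept probe set was dim, and the other one gave -0.17. Cox7a2l, which helps to join complexes III and IV into supercomplexes, read 11.60, 11.56 and 11.59 in Hsp72Tg MCAO and 11.53, 11.51 and 11.62 in WT MCAO, against 12.03 and 11.57 in Hsp72Tg sham and 11.82 and 11.85 in WT sham. Only Hsp72Tg sham 2 lay among the MCAO arrays, its 3 probe sets gave between -0.25 and -0.23, and the difference was -0.25 (SE 0.09, adjusted p = 0.174), or -0.13 without Hsp72Tg sham 1. Cox6c, another small subunit, had sham arrays close together and read 13.16, 13.05 and 13.07 in Hsp72Tg MCAO and 13.08, 13.12 and 13.09 in WT MCAO, against 13.25 and 13.25 in Hsp72Tg sham and 13.25 and 13.23 in WT sham. All MCAO arrays lay below all sham arrays, and the difference was -0.15 (SE 0.06, adjusted p = 0.211). Cox6b1, which sits where the monomers of the dimer meet, had -0.18 (SE 0.08), Cox8a -0.17 (SE 0.07) and Cox5a 0.00 (SE 0.09).

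The paralogs with restricted or inducible expression were dimmer than most other members, with mean log2 values between 4.55 (Cox7b2) and 8.71 (Cox8c). Their 8 genes had a median of -0.10 and 6 of 8 were lower in value. Cox4i2 and Ndufa4l2, known to be induced by hypoxia, had differences of 0.06 (SE 0.08) and -0.06 (SE 0.10), and neither passed in limma (adjusted p = 0.727 and 0.76). Cox4i2 read between 5.73 and 5.93 on the 6 MCAO arrays, against 5.53 to 5.87 on the 4 sham arrays, and the 2 ranges overlapped. The muscle and heart isoforms Cox6a2, Cox7a1 and Cox8b had -0.10, -0.20 and 0.10, and the testis isoforms Cox6b2, Cox7b2 and Cox8c had -0.26, -0.18 and -0.09. Cox6b2 read 7.14 in WT sham 1, above the 6.39 to 6.82 of the other 9 arrays. Muscle markers had a median of 0.05, with 0 of 7 passing and 1 higher at an unadjusted p under 0.05.

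In complex V all 17 members were lower in value. Atp5e, the epsilon subunit of the central stalk, read 10.86, 10.58 and 10.59 in Hsp72Tg MCAO and 10.67, 10.94 and 10.49 in WT MCAO, against 11.53 and 10.61 in Hsp72Tg sham and 11.05 and 11.06 in WT sham. Hsp72Tg sham 1 was the highest array and Hsp72Tg sham 2 lay among the MCAO arrays, so that the difference of -0.37 had an SE of 0.17 (adjusted p = 0.261) and was -0.14 without Hsp72Tg sham 1. Atp5l, subunit g of the membrane part, read 12.20, 11.87 and 11.89 in Hsp72Tg MCAO and 12.13, 12.17 and 11.90 in WT MCAO, against 12.67 and 12.08 in Hsp72Tg sham and 12.28 and 12.39 in WT sham, and differed by -0.32 (SE 0.12, adjusted p = 0.198), or by -0.18 without Hsp72Tg sham 1. Atp5d, the delta subunit of the stalk, was counted as the complex V member without overlap, although its groups touch. It read 13.04, 12.95 and 13.00 in Hsp72Tg MCAO and 12.93, 13.02 and 13.05 in WT MCAO, against 13.13 and 13.08 in Hsp72Tg sham and 13.05 and 13.13 in WT sham, with a difference of -0.10 (SE 0.06). WT MCAO 3 and WT sham 1 were equal to 4 decimals, at 13.0462, so the counts of 5 members without overlap here and of 11 in complex V in WT include a tie. The catalytic subunits Atp5a1 and Atp5b had differences of -0.07 (SE 0.07) each. Medians were -0.18 for the 5 small membrane subunits, -0.10 for the head and central stalk, -0.09 for the peripheral stalk and -0.06 for Atp5g1, Atp5g2 and Atp5g3, which encode the same c subunit of the rotor ring. Without Hsp72Tg sham 1 they were -0.10, -0.08, 0.01 and 0.03. The kept probe set of Atp5g1 gave -0.04 with all arrays and its other probe set -0.53.

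**Figure D2:**
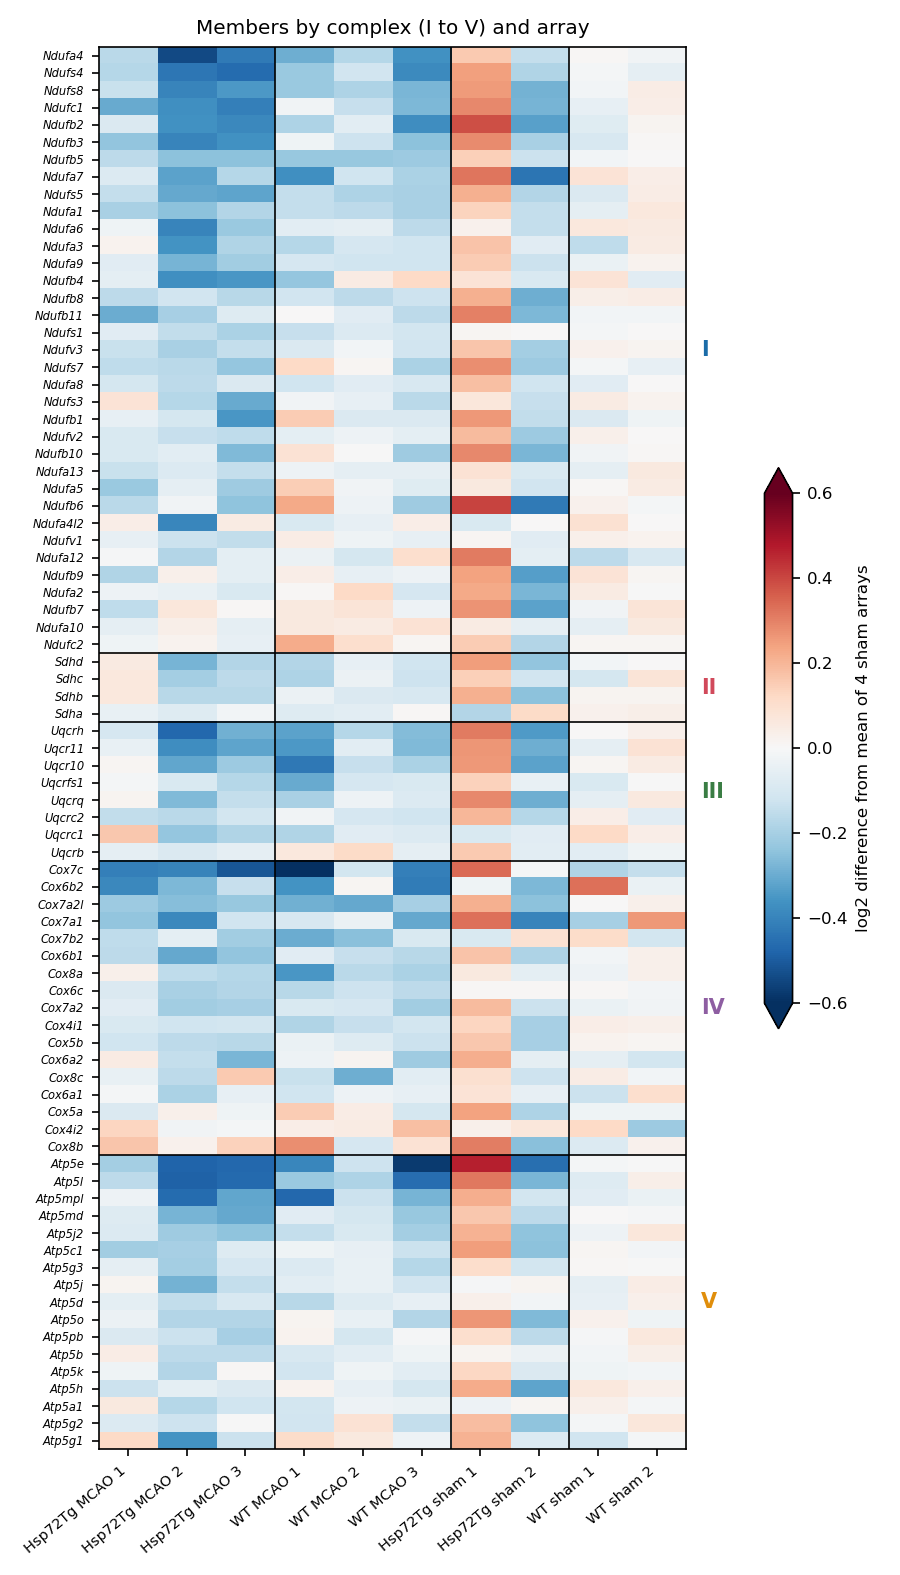
Log2 difference of each member (rows, by complex I to V and by its MCAO minus sham difference) from its mean over the 4 sham arrays, by array (columns). Blue is lower and red higher, with the scale ending at -0.6 and 0.6; the Hsp72Tg sham 1 column is red in nearly all rows and Hsp72Tg sham 2 blue.

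**Figure D3:**
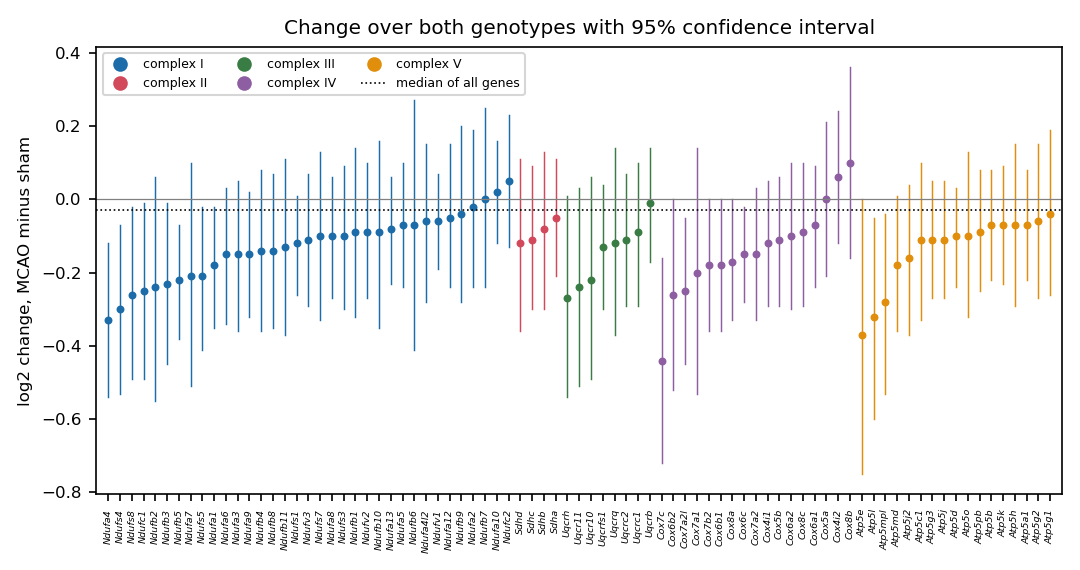
Log2 difference, MCAO minus sham over both genotypes, of the 81 members (horizontal axis, by complex), with 95% confidence intervals from limma as bars; the dotted line is the median of all genes. Values run from -0.44 for Cox7c to 0.10 for Cox8b, and no member passed the test.

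In WT alone (3 MCAO arrays against 2 sham arrays) the members were lower in value in 69 of 81 cases, with a median of -0.09 against -0.02 over all genes. In limma 0 members passed, where 0.0495% of all genes passed as higher and 0.0055% as lower, and at an unadjusted p under 0.05, 2 members were lower, Cox6b2 and Cox8a (2.47%, against 4.52% of all genes), and 0 higher (against 5.71% of all genes). The 3 MCAO arrays lay below both sham arrays in 40 members (49.4%), against 22.5% of all genes, and above both in 0 members, against 16.4% of all genes. By complex this count was 14 of 35 in complex I, 3 of 4 in complex II, 4 of 8 in complex III, 8 of 17 in complex IV and 11 of 17 in complex V, and the medians were -0.08, -0.09, -0.15, -0.14 and -0.08. Cox8a, a small subunit of complex IV, read 11.98, 12.17 and 12.14 in WT MCAO, against 12.30 and 12.36 in WT sham, a difference of -0.24 (SE 0.10, adjusted p = 0.475). Its 3 probe sets gave between -0.24 and 0.04 in WT, so its sign depends on the probe set kept. Cox7a2l read 11.53, 11.51 and 11.62 in WT MCAO, against 11.82 and 11.85 in WT sham, a difference of -0.28 (SE 0.13). In Cox8a and Cox7a2l the WT MCAO arrays lay below the WT sham arrays. In Cox6b2 they overlapped, at 6.45, 6.82 and 6.39 in WT MCAO, against 7.14 and 6.77 in WT sham. The WT median stayed between -0.12 and -0.08 when each of the 10 arrays was left out in turn.

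In Hsp72Tg alone (3 against 2 arrays) the members were lower in value in 80 of 81 cases, with a median of -0.14 against -0.02 over all genes. Again 0 members passed in limma, where 0.0165% of all genes passed as higher and 0.0055% as lower, while at an unadjusted p under 0.05, 7 members were lower (8.64%, against 7.29% of all genes) and 0 higher (against 4.73%). All Hsp72Tg MCAO arrays lay above both sham arrays in 0 members (against 9.05% of all genes) and below both in 9 (11.1%, against 12.8% of all genes), a share near that of all genes: Ndufa4, Ndufb5, Ndufb3, Ndufc1, Ndufa1, Ndufs1, Cox7c, Cox6c and Atp5d. The medians were -0.15 in complex I, -0.10 in complex II, -0.14 in complex III, -0.13 in complex IV and -0.12 in complex V, and without Hsp72Tg sham 1 they were -0.02, 0.06, 0.04, -0.03 and -0.01. Cox7c had a difference of -0.61 (SE 0.18, adjusted p = 0.331), and Ndufb3 read 10.81, 10.65 and 10.68 in Hsp72Tg MCAO, against 11.33 and 10.85 in Hsp72Tg sham, a difference of -0.37 (SE 0.14). These values rest on which Hsp72Tg sham array is used. The median was 0.00 with 41 of 81 members lower without Hsp72Tg sham 1, and -0.32 with 78 lower without Hsp72Tg sham 2. Over all genes the medians in these fits were -0.01 and -0.04.

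**Figure D4:**
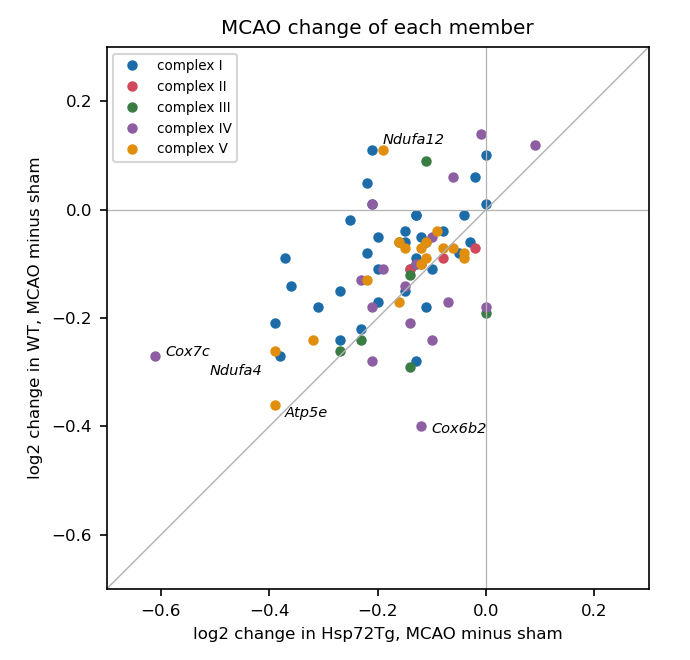
Log2 difference, MCAO minus sham, of each member in Hsp72Tg (horizontal axis) and in WT (vertical axis), coloured by complex, with the line of equal values. Most points lie below 0 on both axes, between -0.61 and 0.09 in Hsp72Tg and between -0.40 and 0.14 in WT; the 2 axes share no array.

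**Figure D5:**
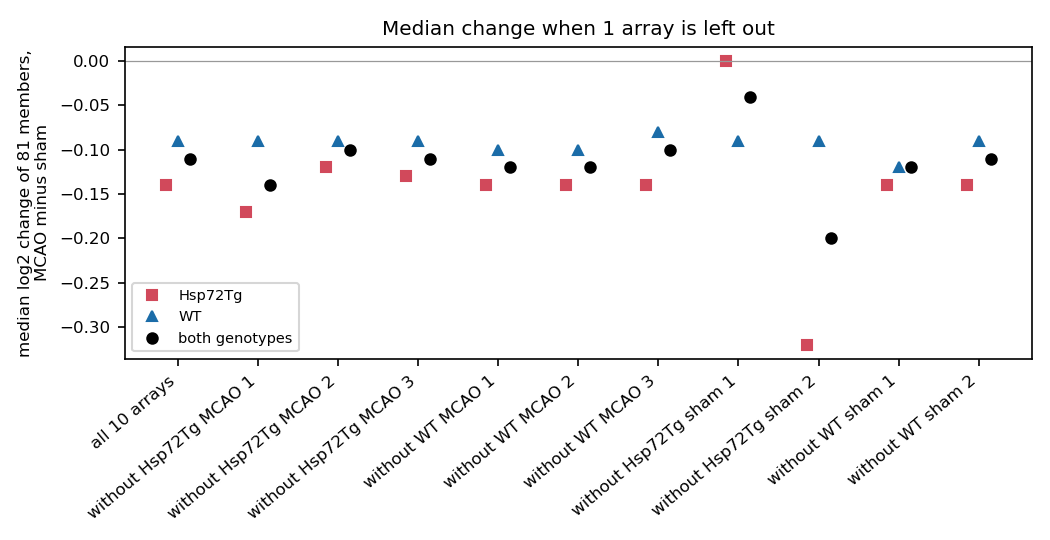
Median log2 difference of the 81 members, MCAO minus sham, with all 10 arrays and with each array left out (horizontal axis), for Hsp72Tg (squares), WT (triangles) and both genotypes (circles). The Hsp72Tg value is 0.00 without Hsp72Tg sham 1 and -0.32 without Hsp72Tg sham 2, while the WT values lie between -0.12 and -0.08.

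The design also asks whether Hsp72 overexpression goes with another response of these genes. The difference of the MCAO differences, Hsp72Tg minus WT, had a median of -0.04 over the members, against -0.01 over all genes, and was below 0 in 61 of 81. No member passed (0 of 81 in limma, and 0 at an unadjusted p under 0.05, where 0% of all genes passed and 0.616% were higher and 1.14% lower at the unadjusted p). The median was 0.09 without Hsp72Tg sham 1 and -0.24 without Hsp72Tg sham 2, and centring each array on its median turned it to 0.01. The members with the lowest p were Ndufa12, a complex I accessory subunit, at -0.32 (SE 0.18, interval -0.71 to 0.07), Atp5g1 at -0.30 (SE 0.20) and Ndufb3 at -0.29 (SE 0.20) below 0, and Cox6b2 at 0.28 (SE 0.23), Uqcrc1 at 0.19 (SE 0.17) and Cox8c at 0.18 (SE 0.17) above 0. All had an adjusted p of 1. The kept probe set of Atp5g1 gave MCAO differences of 0.11 in WT and -0.19 in Hsp72Tg, and its other probe set -0.57 and -0.48. Which genotype had the lower value thus depends on the probe set kept.

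After MCAO, Hsp72Tg minus WT (3 against 3 arrays) had a median of -0.06 over the members with 67 of 81 below 0, against -0.02 over all genes; centring on array medians turned the median to 0.01 with 36 below 0. In limma 0 members passed, as did 0% of all genes, and 0 members had an unadjusted p under 0.05, where 0.89% of all genes were higher and 1.79% lower. Complex I had a median of -0.08 with 33 of 35 below 0, and the other complexes medians between -0.03 and -0.01. The groups did not overlap in 6 members, all of complex I and all lower in Hsp72Tg (7.41% of members, against 4.69% of all genes), and in 0 members were all Hsp72Tg arrays higher (against 2.75% of all genes). Ndufc1 was one of them, with 11.54, 11.47 and 11.43 in Hsp72Tg MCAO, against 11.82, 11.70 and 11.57 in WT MCAO, a difference of -0.22 (SE 0.14). Ndufb4 at -0.24 (SE 0.12) and Ndufa5 at -0.18 (SE 0.09) had the lowest p below 0, and Cox8a at 0.14 (SE 0.09), Cox8c at 0.15 (SE 0.11) and Uqcrfs1 at 0.07 (SE 0.10) above 0. The median was -0.10 without Hsp72Tg MCAO 1 and -0.02 without Hsp72Tg MCAO 2. Relative to the sham means the median member stood at -0.08 in Hsp72Tg MCAO 1 and at -0.19 and -0.17 in Hsp72Tg MCAO 2 and 3. Hsp72Tg MCAO 1 is the array set apart by the picked markers S100a8, S100a9 and P2ry12, though not by all genes of their lists. The part of those markers in this difference was not tested.

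After sham surgery, Hsp72Tg minus WT (2 against 2 arrays) had a median of 0.00 with 42 of 81 below 0, and in limma 0 members passed (0% of all genes did) and 0 had an unadjusted p under 0.05, where 0.698% of all genes were higher and 0.857% lower. This median is the middle of 2 unlike arrays, at -0.16 without Hsp72Tg sham 1 and at 0.18 without Hsp72Tg sham 2. Both Hsp72Tg sham arrays lay on the same side of both WT sham arrays in 7 members: 3 were higher (3.7%, against 12.8% of all genes) and 4 lower (4.94%, against 14.2% of all genes). Ndufa12 was one of the higher ones, at 12.73 and 12.36 in Hsp72Tg sham, against 12.26 and 12.32 in WT sham, a difference of 0.25 (SE 0.14). Cox7c was another, at 0.33 (SE 0.19), as was Cox6a2 at 0.17 (SE 0.14).

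Genes that build and serve the complexes were read beside the subunits. Over both genotypes, 14 of 15 complex I assembly factors were lower in value after MCAO (median -0.15), as were 4 of 4 of complex II (-0.29), 6 of 6 of complex III (-0.16), 14 of 18 of complex IV (-0.10) and 4 of 4 for ATP synthase (-0.16). Of these 47 factors 0 passed in limma. At an unadjusted p under 0.05, 8 were lower and 0 higher, against 10.8% and 8.3% of all genes. The same all-gene shares stand beside the unadjusted counts of the other lists over both genotypes. The largest difference was that of Sdhaf3, which protects the iron-sulfur subunit of complex II during assembly. It read 8.15, 7.42 and 7.91 in Hsp72Tg MCAO and 8.07, 8.06 and 7.79 in WT MCAO, against 9.01 and 8.20 in Hsp72Tg sham and 8.16 and 8.42 in WT sham, a difference of -0.55 (SE 0.18, adjusted p = 0.143), or -0.35 without Hsp72Tg sham 1. Without that array the medians of the 5 lists were -0.07, -0.17, -0.05, -0.07 and -0.06, and 14 of 15, 3 of 4, 3 of 6, 12 of 18 and 2 of 4 factors were lower. Complex I factors had a median of -0.22 in Hsp72Tg and -0.04 in WT (10 of 15 lower), a gap that was not tested. The Hsp72Tg value rests on 2 unlike sham arrays. Relative to the sham means, the median complex I factor stood at 0.20 in Hsp72Tg sham 1 and at -0.13 in Hsp72Tg sham 2. In Hsp72Tg MCAO 1, 2 and 3 it stood at -0.08, -0.36 and -0.16. Among 15 carriers and subunits outside the naming rule, including cytochrome c1 (Cyc1, -0.14) and cytochrome c (Cycs, 0.02), 12 were lower (median -0.13), with 0 passing and 2 lower at an unadjusted p under 0.05; their median was -0.03 without Hsp72Tg sham 1. ND5 had a difference of 0.07 (SE 0.07).

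Other parts of energy metabolism were read on the same arrays. Of 14 glycolysis genes 1 passed, Hk2, a hexokinase that binds mitochondria, which rose by 0.98 (SE 0.11, adjusted p = 0.00826), and the list had a median of -0.04. Hk2 read 7.63, 8.12 and 8.14 in Hsp72Tg MCAO and 8.66, 8.48 and 8.54 in WT MCAO, against 7.34 and 7.29 in Hsp72Tg sham and 7.10 and 7.39 in WT sham, with no overlap between MCAO and sham. Citric acid cycle and pyruvate dehydrogenase genes had a median of -0.06 with 11 of 16 lower, 0 passing and 1 lower at an unadjusted p under 0.05. Of 13 import and chaperone genes 0 passed and 2 were higher at an unadjusted p under 0.05: Hspd1, the matrix chaperonin Hsp60, at 0.47 (SE 0.11, adjusted p = 0.0716), and Hspa9, the mitochondrial Hsp70, at 0.35 (SE 0.08, adjusted p = 0.0606). Hspd1 read 12.01, 12.44 and 12.15 in Hsp72Tg MCAO and 12.02, 12.20 and 12.33 in WT MCAO, against 11.60 and 11.96 in Hsp72Tg sham and 11.59 and 11.73 in WT sham, again without overlap. Among 14 regulators of mitochondrial biogenesis, Pprc1, a coactivator of the PGC-1 family, had the largest difference, 0.50 (SE 0.12, adjusted p = 0.0781), Esrra, an estrogen-related receptor, had -0.22 (SE 0.07) and Nrf1 itself -0.16 (SE 0.12). The list had 0 passing, 1 higher and 2 lower at an unadjusted p under 0.05 and a median of -0.10. The medians without Hsp72Tg sham 1 were -0.07 for glycolysis, -0.05 for the citric acid cycle list and -0.10 for the regulators. That of the import and chaperone genes was 0.04 with all arrays and 0.01 without Hsp72Tg sham 1. The members had -0.04 without that array.

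Markers of brain cells were read on the same arrays, and within most lists they went both ways. Of 7 astrocyte markers (median 0.16) Gfap passed and rose by 1.60 (SE 0.19, adjusted p = 0.0113), while Gja1, a gap junction protein, was at -0.13 and did not pass. Of 6 microglia and macrophage markers (median 0.04) Cd68 passed and rose by 1.35 (SE 0.18, adjusted p = 0.0131). P2ry12 stood at -1.67 (SE 0.37, adjusted p = 0.0586) and Tmem119, also of resting microglia, at -0.27 (SE 0.16), and neither passed. Of 6 endothelial markers (median 0.62) Cldn5 rose by 0.65 (SE 0.12, adjusted p = 0.036) and Pecam1 rose too (adjusted p = 0.035). Slco1a4, a transporter of the blood-brain barrier, was at -0.79 (SE 0.30, adjusted p = 0.194) and did not pass, although it read lower on every MCAO array (8.30 to 10.25) than on every sham array (10.30 to 10.57). Of 5 oligodendrocyte markers (median -0.08) Mog passed and fell by 0.58 with an SE of 0.12 and an adjusted p of 0.0477, while Mobp was at 0.29 (SE 0.09, adjusted p = 0.13). Pericyte and vessel wall markers had a median of -0.04 (0 of 11 passed in limma, with 3 higher and 1 lower at an unadjusted p under 0.05). Neurofilament Nefl, of neuronal axons, had a difference of -0.30 (SE 0.09, adjusted p = 0.133). The part of these cell types in the members' differences was not tested.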

How the data were processed

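Affymetrix arrays were run on hemisphere RNA of 10 mice, labelled with an in vitro transcription kit per the labels' protocols. The deposited values are log2 expression values; the submitters' processing notes name RMA, with no version given in the sources used here. Of 45101 probe sets, 64 controls, 932 with several symbols and 9160 unlisted ones were left out, and the 34945 with 1 symbol gave 18193 genes, by the probe set with the highest mean. The arrays carry no background flag here, and their number limits the precision.

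limma 3.58.1 in R 4.3.3 was fitted to all 10 arrays with 4 group means (6 residual and 3.72 prior degrees of freedom) over all genes, two-sided, with Benjamini-Hochberg adjustment and a threshold of 0.05. It was tested on simulated data. Errors are standard errors. The labels number the samples of a group. The p-values set a difference of groups against the spread between samples within groups, which the fit shares over all 4 groups.

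The members, the 24 lists (210 of 240 genes measured) and the role groups were chosen with earlier results of these data known. Named by rule were up to 2 members per complex, direction and MCAO comparison with the largest differences, 3 per direction with the lowest p in the genotype comparisons, the Sdh subunits, the restricted paralogs and up to 3 genes per list; further genes were named after their values were seen. Alternatives were thresholds, scalings, probe set rules, a filter on dim genes, limma options, array weights, a replicate block and arrays left out; leaving arrays out of the list medians was chosen after seeing the data.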

Additional observations from a re-analysis of the deposited data

Results flagged for a closer look

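The difference of the MCAO differences of Ndufa12, Hsp72Tg minus WT, stood out at -0.32 (SE 0.18, unadjusted p = 0.098, adjusted p = 1 in limma). Every Hsp72Tg MCAO array read below the mean of the Hsp72Tg sham arrays (12.41, 12.24 and 12.36 in Hsp72Tg MCAO, against 12.73 and 12.36 in Hsp72Tg sham), and every WT MCAO array above that of the WT sham arrays (12.38, 12.31 and 12.52 in WT MCAO, against 12.26 and 12.32 in WT sham). Arrays opposed in this way were found in 733 of 18193 genes (4.03%). The gene has 4 probe sets, which gave MCAO differences between -0.22 and 0.29 in Hsp72Tg and between -0.15 and 0.11 in WT, so the sign depends on the probe set kept. The difference in Hsp72Tg was -0.02 without Hsp72Tg sham 1 and -0.39 without Hsp72Tg sham 2.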

How the results depend on the processing

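With all 10 arrays 0 members passed in any comparison, and under 22 alternatives this count moved once, to 1 over both genotypes (Ndufa4) without Hsp72Tg MCAO 1, so that it ranged between 0 and 1 over the arrays left out. Leaving out each array in turn gave these ranges of medians, with both ends set by the Hsp72Tg sham arrays: MCAO minus sham in Hsp72Tg -0.32 to 0.00 over all members, -0.34 to -0.02 in complex I, -0.28 to 0.06 in complex II, -0.38 to 0.04 in complex III, -0.24 to -0.03 in complex IV and -0.31 to -0.01 in complex V; the difference of the MCAO differences -0.24 to 0.09; Hsp72Tg minus WT after sham -0.16 to 0.18; and complex IV over both genotypes -0.20 to -0.04. Over both genotypes, quantile normalization gave a median of -0.08, centring on array medians -0.10, the mean over probe sets -0.11 with 79 of 81 lower, and every probe set -0.11 with 145 of 164 lower. Array weights gave -0.12 and 1116 calls over all genes against 266 with all arrays weighted alike. Calls over all genes in this comparison lay between 11 without Hsp72Tg sham 1 and 2251 without Hsp72Tg MCAO 1. Replicate numbers did not pair the samples (same-numbered deviations correlated at r between -0.156 and 0.249); with them as a replicate block 0 members passed, the medians were -0.11 over both genotypes, -0.08 in WT and -0.13 in Hsp72Tg, and 19 genes of all passed over both genotypes. In WT, a fit to the WT arrays alone called 955 genes against 10 with all 10 arrays, and again 0 members. Of 2226 recomputed differences of 36 named members, 78 (3.5%) changed sign. For 15 of the 48 members with several probe sets, these differed in sign over both genotypes; 32 had all of them lower.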

Other observations

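Of the other lists, mitochondrial dynamics and mitophagy genes had a median of -0.10 over both genotypes with 6 of 8 lower in value, and the mitophagy receptor Fundc1 had the lowest value, -0.26 (SE 0.07, adjusted p = 0.0926). Mitochondrial redox genes had a median of -0.14 with 4 of 5 lower, where Txnrd2, the mitochondrial thioredoxin reductase, had a difference of -0.21 (SE 0.06, adjusted p = 0.119) and Sod2, the matrix superoxide dismutase, one of 0.15 (SE 0.07, adjusted p = 0.275). Without Hsp72Tg sham 1 the medians were -0.04 and -0.01. In limma 0 genes of either list passed, and at an unadjusted p under 0.05 each list had 1 lower and 0 higher. Sod2 read 10.94, 11.13 and 10.96 in Hsp72Tg MCAO and 10.88, 10.91 and 10.93 in WT MCAO, against 10.75 and 10.87 in Hsp72Tg sham and 10.76 and 10.86 in WT sham, with all MCAO arrays above all sham arrays.

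Median differences were 0.23 for neutrophil and monocyte markers, 0.10 for red blood cell markers and -0.42 for cerebellar markers, and 0 of 6, 0 of 3 and 0 of 8 of their genes passed in limma. At an unadjusted p under 0.05, 2 neutrophil and monocyte markers were higher, 0 red blood cell markers differed and 2 cerebellar markers were lower. The cerebellar difference includes WT sham 1, the array with a cerebellar signal. Relative to the sham means, the median cerebellar marker stood at 0.96 there and between -0.33 and -0.29 on the other sham arrays. On the MCAO arrays it stood between -0.69 and -0.32.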
